A study of Mus musculus with 18 samples.

Results

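The detoxification enzymes outside the cytochromes P450 were read in kidney cortex of 5 mouse strains. They were chosen by gene symbol, and with earlier results of these data known. The choice took every UDP-glucuronosyltransferase (Ugt), sulfotransferase (Sult), aldehyde dehydrogenase (Aldh), aldo-keto reductase (Akr), alcohol dehydrogenase (Adh), flavin-containing monooxygenase (Fmo), carboxylesterase (Ces), numbered N-acetyltransferase (Nat) and epoxide hydrolase (Ephx), without Aldh1a1, Aldh1a7 and Adh1. This gave 93 genes of the 34509 symbols on the array and 140 of its 46643 probes. Ugt was the largest family with 21 genes, followed by Aldh with 16, Akr with 14, Nat and Sult with 11 each, Fmo with 7, Adh with 6, Ces with 5 and Ephx with 2. Several symbols have since been replaced. In the current gene table Ces3 is an older name of both Ces1d and Ces3a, and Nat5, Nat6, Nat11, Nat12 and Nat13 are names of enzymes that acetylate proteins, not drugs.

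The mice were 2 months old and all of them had been challenged with anti-GBM antibody, which binds the glomerular basement membrane and starts a glomerulonephritis. B6 and BALB/c were labelled as resistant strains, and DBA1, 129/svj, and NZW as sensitive strains, with 3 mice of each strain. No unchallenged mice were among the arrays, so what the strains differed in beforehand and how they responded cannot be told apart. The deposited Illumina signals came in 2 tables, one with B6 and NZW and one with BALB/c, DBA1, and 129/svj, and the strains that share a table were compared within it. A total of 45 member probes of 37 genes could be paired between the tables, and the other 95 were read in B6 and NZW alone.

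Detoxification of lipophilic compounds runs in steps. Flavin-containing monooxygenases, carboxylesterases, epoxide hydrolases, and the dehydrogenases and reductases for alcohols, aldehydes and ketones expose or change a reactive group. The glucuronosyltransferases and sulfotransferases then attach a polar group, so that the product can be carried into urine or bile, and the acetyltransferases attach an acetyl group. In the kidney these enzymes are found mostly in the proximal tubule, where organic ions are taken up from blood. The Ugt1a genes form a single locus in which each gene has its own promoter and first exon and all share the exons that follow, so a probe in the shared exons reads every transcript of the locus.

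RefSeq promoters, windows of 300 bases that end just after the start of the transcript, were found for 69 of the member genes, 77 windows in all. The promoters of Ugt1a7c and Ugt1a10 are shown because probes of these neighbours in the Ugt1a locus differed in opposite directions between B6 and NZW, and that of Fmo4 because its signal ran from undetected to well detected across strains. All sequences are from GRCm38.p6, the reference of B6 mice, and run 5′ to 3′ on the strand of the gene; capitals mark GTTAAT or its reverse complement ATTAAC, the core of the site of hepatocyte nuclear factor 1. The Ugt1a7c promoter lies at chr1:88094751-88095050 on the plus strand, the Ugt1a10 promoter at chr1:88055161-88055460 on the plus strand, and the Fmo4 promoter at chr1:162812500-162812799 on the minus strand.
Ugt1a7c: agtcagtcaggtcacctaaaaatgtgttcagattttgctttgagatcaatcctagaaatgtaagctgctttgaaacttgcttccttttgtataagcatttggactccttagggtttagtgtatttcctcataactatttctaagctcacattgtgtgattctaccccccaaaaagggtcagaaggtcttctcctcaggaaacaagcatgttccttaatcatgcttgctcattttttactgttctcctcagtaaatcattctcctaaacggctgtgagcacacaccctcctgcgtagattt
Ugt1a10: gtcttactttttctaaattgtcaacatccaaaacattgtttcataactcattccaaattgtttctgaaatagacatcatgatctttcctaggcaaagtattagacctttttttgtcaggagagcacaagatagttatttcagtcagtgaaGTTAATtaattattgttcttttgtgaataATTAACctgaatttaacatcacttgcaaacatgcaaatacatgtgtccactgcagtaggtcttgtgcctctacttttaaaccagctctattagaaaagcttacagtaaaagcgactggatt
Fmo4: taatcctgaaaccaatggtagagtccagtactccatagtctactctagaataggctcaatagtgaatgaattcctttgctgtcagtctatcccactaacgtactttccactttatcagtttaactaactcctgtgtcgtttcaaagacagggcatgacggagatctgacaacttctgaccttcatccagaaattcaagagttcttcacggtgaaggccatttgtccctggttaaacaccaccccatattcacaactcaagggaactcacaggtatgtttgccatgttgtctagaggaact
The Ugt1a10 promoter held this motif 2 times and the other shown promoters did not hold it. Of other promoters in the Ugt1a locus, those of Ugt1a1, Ugt1a6a, and Ugt1a9 each held it 1 time, and those of Ugt1a2 and Ugt1a5 did not. A link between the motif and the strain differences was not tested. On either strand, GTTAAT was in 12 of the 77 member promoters (15.6%) and in 7.1% of all 32851 promoters. The same search for the xenobiotic response element core GCGTG found 26% of the member promoters and 32.4% of all, that for the antioxidant response element core TGACNNNGC found 5.19% and 12.4%, and that for TATAAA found 19.5% and 13.6%. The DR1 element TGGACTTTG, a site of hepatocyte nuclear factor 4 alpha, was in 1 member promoter (1.3%) and in 0.475% of all. None of these other motifs was in the 3 promoters shown. A match is a description of these letters only, and the strains other than B6 may carry other letters.

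The median signal per array was between 81.1 and 152, and between 30.5% and 36.4% of probes were detected, that is, had a detection p of 0.05 or less against the negative control beads. Mouse 3 of DBA1 and mouse 3 of 129/svj stood apart: their correlations with the other mice of their strain were 0.962 to 0.975 over the tested probes, against 0.982 to 0.993 between all other mice of one strain. Of the 45 paired member probes, 22 probes of 19 genes were detected in at least 3 mice and were tested, and 13 probes were detected in every mouse. Of the adrenal cortex markers, Cyp11a1, Cyp21a1, and Mc2r were not detected in B6 and NZW, while 2 probes of Star were, with differences of -0.14 and 0.01 (adjusted p = 0.485 and 0.977). Between resistant and sensitive strains, none of the 6 tested marker probes of the proximal tubule passed the threshold, nor any of the 7 of later nephron segments and the straight tubule, the 2 of T lymphocytes, or the 1 of neutrophils. No paired probe of macrophages or B lymphocytes could be tested. The summed level of the paired proximal tubule probes was 26300 to 33320 in B6, 33120 to 35490 in NZW, 39660 to 47950 in BALB/c, 34610 to 48060 in DBA1, and 27590 to 39810 in 129/svj on the scale of the normalized signal, so the strains of each table overlapped. Over all proximal tubule probes of the table of B6 and NZW, the sum was 83860 to 97720 in B6 and 105300 to 110400 in NZW, without overlap. In whole cortex, fewer cells of a type and less RNA per cell cannot be told apart.

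Between the resistant and the sensitive strains, 6 of the 22 tested member probes differed at an adjusted p below 0.05 (limma, Benjamini-Hochberg over all 6897 tested probes), a share of 27.3% where 12% of all tested probes differed. The comparison is the mean of the differences within each table (B6 minus NZW, and BALB/c minus the mean of DBA1 and 129/svj). Fmo1, Akr1e1, and Ugt2b34 were higher in the resistant strains (3 probes, where 6.54% of all probes were higher), and Ces3, Fmo4, and a bright probe named Ugt1a10 were lower (3 probes, where 5.47% were lower). Fmo1 passed the detection filter through B6 alone, the strain in which it was high. The median difference of the 22 probes was 0.01, and that of all tested probes was -0.01. With the strain as a random block, only Ces3 passed (1 of 22, where 1.52% of all probes passed). That fit takes 1 correlation between mice of a strain for all probes (0.17). It still counts the 15 mice, so it is not a test on 5 strains. Each table alone shows which strains carried each difference. B6 and NZW differed in 6 members (9.84% of all probes differed), BALB/c and DBA1 in 6 (9.45%), BALB/c and 129/svj in 3 (7.5%), and DBA1 and 129/svj, both sensitive, in 5 (7.31%). Of the calls between B6 and NZW 1 was higher and 5 were lower in B6, where 5.86% of all probes were higher and 3.99% were lower. With scaling to the 75th percentile these were 2 and 5 members, where 13.8% of all probes differed with a median of -0.11. With each table normalized on its own they were 2 and 4 (13.5% of all, median -0.04). Between BALB/c and DBA1 4 were higher and 2 were lower in BALB/c, where 4.58% and 4.87% of all probes were. With scaling to the 75th percentile these were 4 and 1 members (7.61% of all). Nothing in the sources used here says how far the samples of a strain were processed apart, so the p-values measure the spread between these samples, which may in part be technical. In all, 10 of the 22 probes differed in at least 1 of these comparisons, where 21.5% of all probes did. The difference itself was unlike between the tables in 3 members (10.3% of all probes). A total of 3 members, Fmo1, Fmo4, and Akr1e1, went from detection in all mice of a strain to detection in no mouse of another strain of its table (7.41% of all probes).

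**Figure D1:**
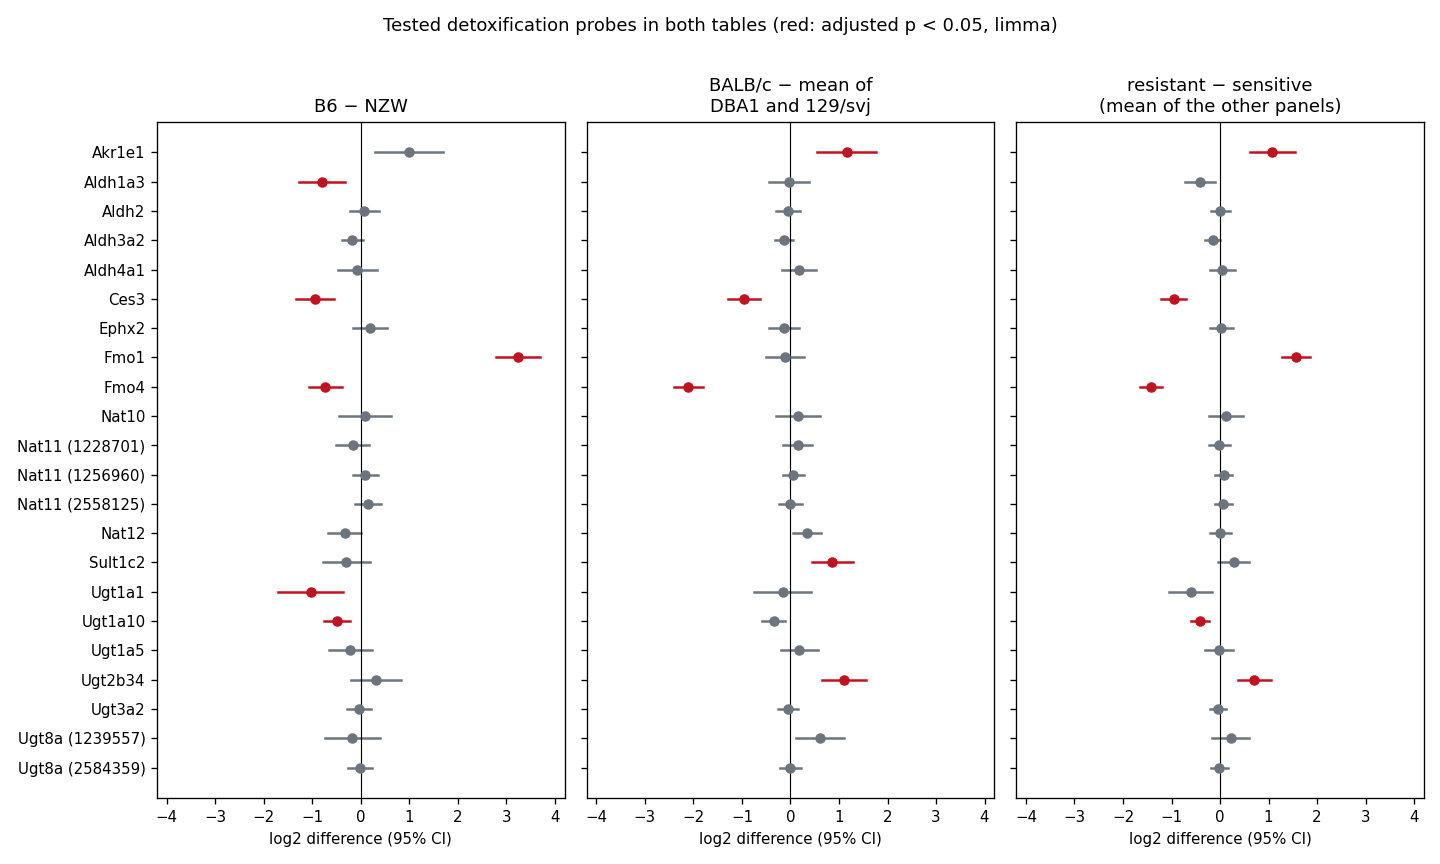
Log2 difference and 95% confidence interval of the 22 tested member probes for B6 minus NZW, for BALB/c minus the mean of DBA1 and 129/svj, and for the mean of both; red marks an adjusted p below 0.05 in limma. Ces3 lay near -0.95 in both tables, the difference in Fmo1 came from B6 alone, and that in Fmo4 was largest in the table of BALB/c.

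Fmo1, a monooxygenase that oxidizes nitrogen and sulfur in drugs and is abundant in mouse kidney, gave the largest rise. The log2 signal was 8.05, 7.31, and 8.30 in the B6 mice and 4.64, 4.66, and 4.64 in the NZW mice. It was 4.79, 4.70, and 4.78 in BALB/c, 4.96, 4.76, and 4.85 in DBA1, and 4.74, 5.25, and 4.62 in 129/svj. The probe was detected in the 3 B6 mice and in no other mouse, and B6 overlapped with no strain. It passed the filter of 3 detected mice only through B6, so its p-values add no separate evidence that B6 was high. Because NZW lay below detection, the difference was at least 5.4-fold (log2 3.24 ± 0.21 SE, adjusted p = 5.98e-08). BALB/c did not share it, with -0.11 ± 0.18 against the mean of DBA1 and 129/svj, and the differences of the 2 tables were unlike (adjusted p = 1e-06). The call between resistant and sensitive strains thus rested on B6 alone. The probe (ILMN_1243315) rests on a RIKEN clone. Both other Fmo1 probes, ILMN_2640470 and ILMN_1250917, were detected in no mouse of the tables in which they were read.

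Fmo4, a monooxygenase of the same gene family, is a member that the study chose on these arrays, so its direction is not independent evidence. Its probe entered the paired set only through its name in the study, and without it 5 of 21 tested members (23.8%) differed between resistant and sensitive strains. The log2 signal was 8.59, 8.50, and 8.76 in 129/svj, 5.91, 5.11, and 5.63 in DBA1, and 4.97, 4.96, and 5.01 in BALB/c. In the other table it was 7.22, 7.35, and 7.30 in B6 and on average 8.02 ± 0.03 (SD, n = 3) in NZW. The 129/svj mice were thus far above both BALB/c and DBA1, and the probe was detected in 3 mice of 129/svj, 2 of DBA1, and none of BALB/c. The signal of 129/svj was at least 7.85-fold that of BALB/c (log2 -3.64 ± 0.16 for BALB/c minus 129/svj, adjusted p = 5.08e-10). DBA1 minus 129/svj was -3.07 ± 0.16 (adjusted p = 2.6e-09), although the DBA1 mean of 5.55 lay below the detected level of 5.65 that sets the bound for BALB/c, so the size is uncertain. B6 minus NZW was -0.73 ± 0.16 (adjusted p = 0.0076), and these strains did not overlap. BALB/c and DBA1 also passed (adjusted p = 0.0387), but both means lay below that level, and the call was lost when any of 12 single mice was left out, up to an adjusted p of 0.147 without mouse 1 of DBA1.

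Ces3, a carboxylesterase that splits esters and stored lipids, was lower in the resistant strain of both tables by nearly the same size. Its log2 signal was 13.59, 13.70, and 13.95 in B6 against 14.58, 14.84, and 14.67 in NZW. It was 13.10, 12.72, and 13.14 in BALB/c against 14.42, 13.95, and 13.73 in DBA1 and 13.69, 14.06, and 13.83 in 129/svj. Within each table, every mouse of the resistant strain lay below every mouse of the sensitive strains. The level was 1.93-fold lower in B6 than in NZW (log2 -0.95 ± 0.18, adjusted p = 0.00253), 2.06-fold lower in BALB/c than in DBA1 (-1.05 ± 0.18, adjusted p = 0.00144), and 1.83-fold lower in BALB/c than in 129/svj (-0.88 ± 0.18, adjusted p = 0.00611). These calls held without any single mouse. With the strain as a random block, a fit that still counts the mice, the adjusted p of resistant against sensitive strains was 0.00303.

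The bright probe named Ugt1a10 (ILMN_2493826) went the same way with a smaller size. Its log2 signal was 13.70, 13.76, and 13.85 in B6 and 14.19, 14.37, and 14.22 in NZW. In the other table it was 13.49, 13.41, and 13.57 in BALB/c, 14.13, 13.74, and 13.70 in DBA1, and 13.80, 13.87, and 13.78 in 129/svj. BALB/c lay below both sensitive strains of its table without overlap, and B6 lay below NZW. The mean difference was -0.42 ± 0.08 (adjusted p = 0.00381), and B6 minus NZW was -0.49 ± 0.13 (adjusted p = 0.0237), a call that was lost without mouse 2 or 3 of NZW or mouse 1 or 2 of B6 (adjusted p up to 0.104). With the strain as a random block the adjusted p was 0.0563. The search key of this probe holds the gene number of Ugt1a7c and not of Ugt1a10, so which transcript of the locus it reads is uncertain. Ces3 and this probe were the 2 members that differed and separated both resistant strain means from all 3 sensitive ones, each with the resistant means below. Over all tested probes, 3.49% differed and separated the strains in either direction. No member met both criteria when each table was normalized on its own, or with scaling to the 75th percentile.

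Akr1e1, Ugt2b34, and Ugt8a shared a pattern within their table: DBA1 was low beside both BALB/c, a resistant strain, and 129/svj, a sensitive strain. For Akr1e1 and Ugt8a the BALB/c and 129/svj mice overlapped. For Ugt2b34 every BALB/c mouse lay above every 129/svj mouse. Akr1e1 is an aldo-keto reductase of ketone groups. Its log2 signal was 8.43, 8.42, and 8.20 in BALB/c, 8.42, 8.05, and 7.42 in 129/svj, and 6.83, 6.91, and 5.54 in DBA1, and DBA1 overlapped with neither. BALB/c was 3.79-fold above DBA1 (log2 1.92 ± 0.33, adjusted p = 0.00129) and 129/svj was 2.90-fold above DBA1 (DBA1 minus 129/svj -1.53 ± 0.33, adjusted p = 0.00799). In the other table, B6 gave 5.72, 6.15, and 6.62 and was detected in all mice, and NZW gave 4.96, 5.30, and 5.24 and was detected in none. The groups did not overlap, but the difference of at least 1.63-fold did not pass over the paired probes (adjusted p = 0.0766) and passed among all probes of that table (log2 1.19 ± 0.24, adjusted p = 0.0105).

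Ugt2b34 is a glucuronosyltransferase of the family that conjugates steroids and drugs. Its log2 signal was 8.81, 8.67, and 8.61 in BALB/c, 8.26, 8.21, and 7.71 in 129/svj, and 7.75, 7.05, and 6.58 in DBA1. BALB/c was 2.97-fold above DBA1 (log2 1.57 ± 0.24, adjusted p = 0.000485), and DBA1 minus 129/svj was -0.93 ± 0.24 (adjusted p = 0.0264). The latter groups overlapped through mouse 1 of DBA1, and the call was lost without mouse 2 or 3 of DBA1 or mouse 1 or 2 of 129/svj (adjusted p up to 0.108). B6 (6.67, 6.51, and 6.53) and NZW (6.52, 6.29, and 5.96) overlapped as well, and their difference of 0.31 ± 0.24 did not pass (adjusted p = 0.548). When normalized with all probes of that table, B6 and NZW did not overlap, and the difference of 0.42 ± 0.17 did not pass either (adjusted p = 0.127). Ugt8a makes galactosylceramide, a lipid of myelin and kidney. Its probe ILMN_1239557 gave 7.70, 8.12, and 8.93 in BALB/c, 8.14, 8.30, and 8.02 in 129/svj, and 6.95, 7.35, and 7.10 in DBA1. DBA1 was below both without overlap, by 2.17-fold against BALB/c (adjusted p = 0.0135) and by 2.03-fold against 129/svj (adjusted p = 0.0268). The first call was lost without mouse 3 of BALB/c or mouse 1 of DBA1, and the second without mouse 1 or 3 of DBA1 or mouse 1 or 2 of 129/svj (adjusted p up to 0.0962). B6 and NZW overlapped, with a difference of -0.18 ± 0.26. For none of these 3 genes did BALB/c and 129/svj differ at the threshold, with 0.39 ± 0.33 for Akr1e1, 0.64 ± 0.24 for Ugt2b34, and 0.10 ± 0.26 for Ugt8a. Some markers moved between these strains as well. Of the 3 tested probes of the thick ascending limb and distal tubule, that of Pvalb was higher in BALB/c than in DBA1 (3.36 ± 0.65, adjusted p = 0.00337) and lower in DBA1 than in 129/svj (-2.39 ± 0.65, adjusted p = 0.0359), and the summed level of the list was 4191 to 5111 in BALB/c, 336.7 to 1329 in DBA1, and 750.2 to 5233 in 129/svj. The 1 tested probe of the straight proximal tubule, Cyp7b1, ran the opposite way (BALB/c minus DBA1 -2.80 ± 0.43, DBA1 minus 129/svj 2.11 ± 0.43), with sums of 36.68 to 42.9, 105.4 to 522.3, and 37.75 to 93.14 in these strains. Of 3 collecting duct probes and 6 proximal tubule probes, 1 each was higher in BALB/c than in DBA1. Their part in the pattern was not tested. The other Ugt8a probe, ILMN_2584359, was detected in all mice of B6 and NZW and in no mouse of the other table. Whether that gap lay between strains or between tables cannot be told apart.

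**Figure D2:**
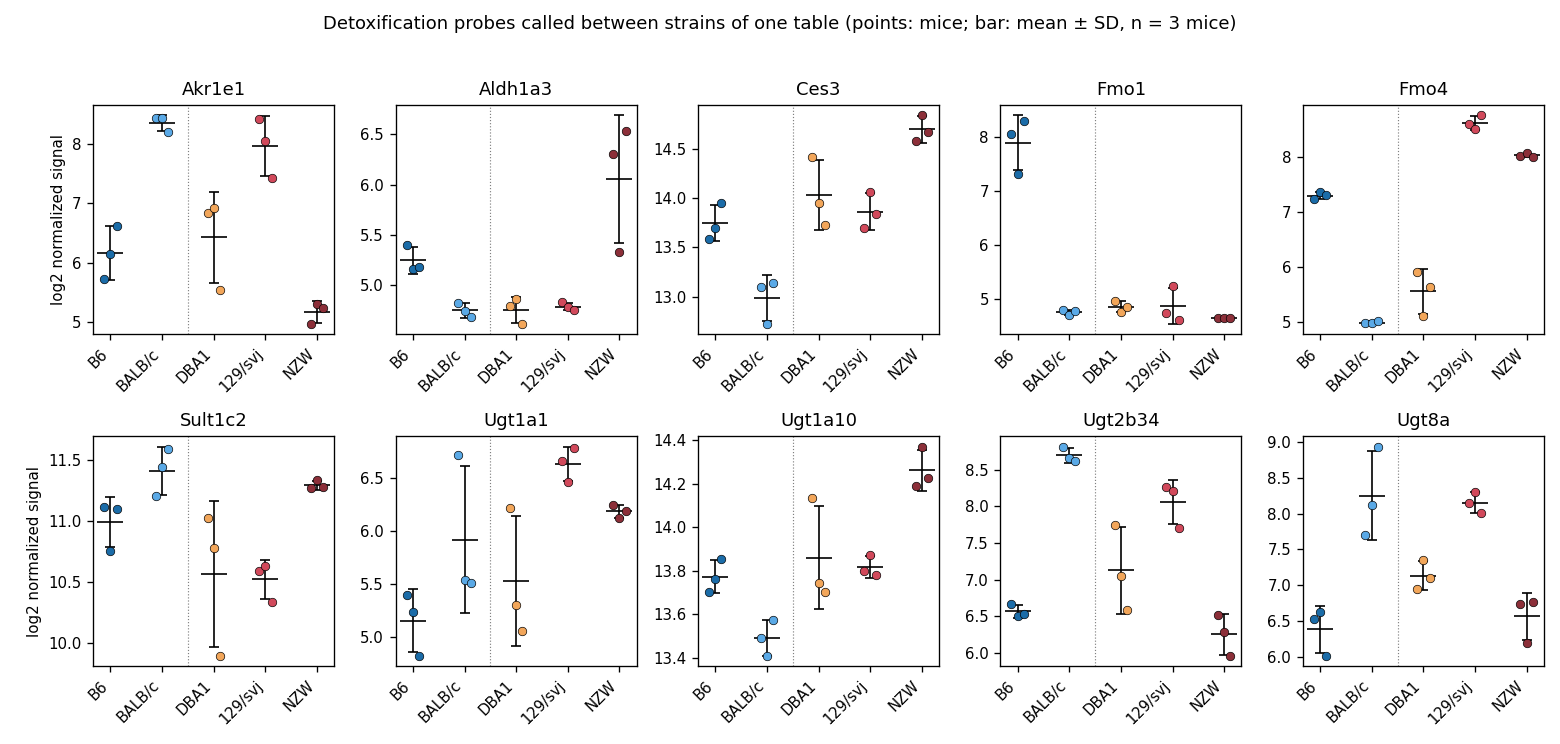
Log2 normalized signal of the 10 member probes that differed between strains of one table at an adjusted p below 0.05; each point is a mouse, the bars are the mean and SD of 3 mice, each panel has its own axis, and the dotted line parts the resistant strains (left) from the sensitive strains. Akr1e1, Ugt2b34, and Ugt8a were low in DBA1 beside BALB/c and 129/svj, and Fmo4 was highest in 129/svj.

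Sult1c2, a cytosolic sulfotransferase found in kidney, was high in BALB/c within its table. The log2 signal was 11.20, 11.44, and 11.59 in BALB/c, 11.03, 10.78, and 9.89 in DBA1, and 10.59, 10.63, and 10.34 in 129/svj. BALB/c lay above both without overlap, by 1.79-fold against DBA1 (log2 0.84 ± 0.23, adjusted p = 0.0278) and by 1.85-fold against 129/svj (0.89 ± 0.23, adjusted p = 0.0232). In the other table the resistant strain was not the higher one, with 11.11, 10.75, and 11.10 in B6 and 11.27, 11.33, and 11.27 in NZW. Their difference of -0.30 ± 0.23 did not pass (adjusted p = 0.531). The differences of the tables were unlike (1.17 ± 0.30, adjusted p = 0.02), a call that was lost without mouse 2 of NZW, mouse 2 of B6, or mouse 3 of BALB/c. Those against DBA1 and 129/svj were lost without mouse 2 or 3 of BALB/c, and without mouse 3 of DBA1 or of 129/svj respectively (adjusted p up to 0.101).

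Ugt1a1 and Aldh1a3 were dim, and their calls depended on single mice. Ugt1a1, the enzyme that conjugates bilirubin, gave 6.25, 6.12, and 6.19 in NZW and 5.40, 5.23, and 4.82 in B6. In the other table it gave 6.67, 6.47, and 6.78 in 129/svj, 6.22, 5.30, and 5.05 in DBA1, and 6.72, 5.53, and 5.50 in BALB/c. It was lower in B6 than in NZW (-1.04 ± 0.31, adjusted p = 0.0499) and in DBA1 than in 129/svj (-1.11 ± 0.31, adjusted p = 0.0429), and in both pairs the groups did not overlap. Each of these calls was lost under 10 of the 15 omissions of a single mouse, up to an adjusted p of 0.2 without mouse 3 of B6, and among all probes of the table of B6 and NZW the difference was -1.16 ± 0.15 (adjusted p = 0.00101). Aldh1a3, which makes retinoic acid from retinal, gave 6.30, 5.33, and 6.53 in NZW against 5.40, 5.16, and 5.19 in B6, and these groups overlapped through mouse 2 of NZW. The difference of -0.81 ± 0.22 (adjusted p = 0.0319) was lost without mouse 1 or 3 of NZW or any mouse of B6, and among all probes of that table (-0.93 ± 0.32, adjusted p = 0.0791). In the other 3 strains it was detected in no mouse.

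The remaining 12 tested probes passed in none of these 5 comparisons, and their differences ran from -0.38 to 0.37. Aldh2, the mitochondrial enzyme that oxidizes acetaldehyde, was bright in all mice with a mean log2 signal of 13.99 ± 0.06 (SD, n = 3) in B6, 13.91 ± 0.03 in BALB/c, 13.80 ± 0.26 in DBA1, 14.11 ± 0.13 in 129/svj, and 13.92 ± 0.15 in NZW. Its difference between resistant and sensitive strains had an interval from -0.19 to 0.20. Ugt3a2, a glycosyltransferase of kidney, spanned 0.31 over all 15 mice, with an interval from -0.21 to 0.12. Ephx2, the soluble epoxide hydrolase that opens epoxides of fatty acids, had an interval from -0.21 to 0.26, and Aldh4a1, which acts in proline breakdown, one from -0.22 to 0.32. Aldh3a2, which oxidizes fatty aldehydes, had one from -0.30 to -0.01 with an adjusted p of 0.189. The 3 probes of Nat11, a name of a protein acetyltransferase, had intervals between -0.24 and 0.25. These intervals bound the differences and do not show that the strains were alike.

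Many more members could be read in B6 and NZW, where 68 of all 140 probes were tested against the other probes of that table. Of the 47 tested probes without a partner in the other table, 16 differed, 5 higher and 11 lower in B6, a share of 34% where 18.8% of all 16766 tested probes differed, 9.24% higher and 9.6% lower. With scaling to the 75th percentile these were 5 higher and 20 lower, but 21.6% of all probes then differed. Their median difference moved from -0.04 to -0.13. Some called probes, detected in 1 strain alone, passed the detection filter through the strain in which they were high. Markers of that table moved too. Of 15 proximal tubule probes 4 were lower and 1 was higher in B6, of 3 straight tubule probes 2 were higher (sum 5451 to 6203 in B6, 4025 to 4633 in NZW), of 11 thick ascending limb and distal tubule probes 2 were higher and 1 was lower (51760 to 56310, 45010 to 52740), and of 6 podocyte probes 2 were lower (9362 to 10310, 8880 to 10870). Of 6 tubule injury probes, Lcn2 (1.80 ± 0.46) and Spp1 (0.69 ± 0.19) were higher and Havcr1 (-2.77 ± 0.60) and Krt18 (-0.71 ± 0.14) were lower (8348 to 16180, 7148 to 9082). Of 3 adipose tissue probes Cfd was higher (3.99 ± 1.08, adjusted p = 0.0347), with a sum of 755.5 to 7150 in B6 and 100.3 to 535.1 in NZW, while Plin and Lep were not detected. Of 4 liver probes 2 were higher and 1 was lower (3819 to 4082, 4789 to 6900), with Alb and Fgb not detected. No probe of leukocytes, endothelium or collecting duct passed. The part of these cell types in the member differences was not tested. The Ugt1a locus gave the widest range. It is represented by 21 probes under 8 symbols, 15 of them tested, of which 8 were lower and 2 were higher in B6. The 2 higher probes were both named Ugt1a7c. ILMN_1221348 gave 8.55, 8.54, and 8.19 in B6 and 4.72, 5.30, and 4.71 in NZW, where it was not detected, a difference of at least 8.6-fold (log2 3.52 ± 0.18, adjusted p = 3.12e-06). ILMN_1225921 gave 9.64, 9.65, and 9.23 in B6 and 7.12, 7.47, and 7.58 in NZW, 4.33-fold higher in B6 (2.11 ± 0.16, adjusted p = 4.12e-05). For both probes the strains did not overlap, but the share of all probes without overlap was not counted. ILMN_1221348 passed the detection filter through B6 alone.

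The 3 probes whose key holds the gene number of Ugt1a10 went the other way. ILMN_2474378 gave 6.66, 6.65, and 5.53 in B6 and 9.22, 9.11, and 9.64 in NZW, an 8.26-fold lower level in B6 (-3.05 ± 0.30, adjusted p = 0.000167). ILMN_2502317 was detected in every NZW mouse and in no B6 mouse, with a difference of at least 1.9-fold (adjusted p = 0.000231). It passed the detection filter through NZW alone. ILMN_2419146 was 2.00-fold lower in B6 (SE 0.14 on the log2 scale, adjusted p = 0.00142). No B6 mouse reached a NZW mouse for any of them, but the share of all probes without overlap was not counted. Some probes that did not pass also had no overlap, such as ILMN_1256518 of Akr7a5 (-0.10 ± 0.10, adjusted p = 0.538 in limma). A further probe named Ugt1a10, ILMN_1226936, differed by -0.55 ± 0.13 (adjusted p = 0.0183), and 2 probes named Ugt1a5 by -0.59 ± 0.17 and -0.71 ± 0.18 (adjusted p = 0.0442 and 0.0281). The first of these was lost without mouse 2 of B6, and each Ugt1a5 call without any of 5 mice (adjusted p up to 0.149). Probes with different symbols in this locus carry the same search key or accession, and where each probe lies within the shared or the first exons is not analysed here.

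The table of BALB/c, DBA1, and 129/svj holds a row for the key that Ugt1a7c and Ugt1a9 probes share, and it was read in these strains alone. Its log2 signal was 10.18, 9.89, and 9.66 in BALB/c, 7.80, 6.49, and 8.08 in DBA1, and 7.91, 6.92, and 8.23 in 129/svj. All BALB/c mice lay above all mice of the sensitive strains. BALB/c was higher by 2.45 ± 0.43 than DBA1 (adjusted p = 0.00719, 5.75% of all probes of that table differed) and by 2.22 ± 0.43 than 129/svj (adjusted p = 0.0137, 4.82%). The latter was lost without mouse 1 or 2 of BALB/c (adjusted p up to 0.0611). Thus the row of this key and both Ugt1a7c probes of the other table were higher in the resistant strain. Which of the probes the row corresponds to is uncertain, no test spans both tables, and the Ugt1a9 probe of the key was not detected in B6 and NZW. The row of the key that the 3 Ugt1a10 probes share gave 6.76 ± 0.34 in BALB/c, 7.01 ± 0.51 in DBA1, and 6.94 ± 0.25 in 129/svj, with no difference past the threshold. Of the 7 tested rows of this kind, 1 other was called: that of Aldh8a1, an enzyme of retinal oxidation, gave 8.15, 7.65, and 7.93 in DBA1, 7.32, 7.14, and 7.03 in BALB/c, and 6.94, 6.69, and 7.14 in 129/svj. DBA1 lay above both without overlap, by 0.99 ± 0.18 against 129/svj (adjusted p = 0.00937, 4.48% of probes differed) and with BALB/c minus DBA1 at -0.74 ± 0.18 (adjusted p = 0.0374). The latter was lost under 6 of 9 omissions of a single mouse (adjusted p up to 0.128).

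**Figure D3:**
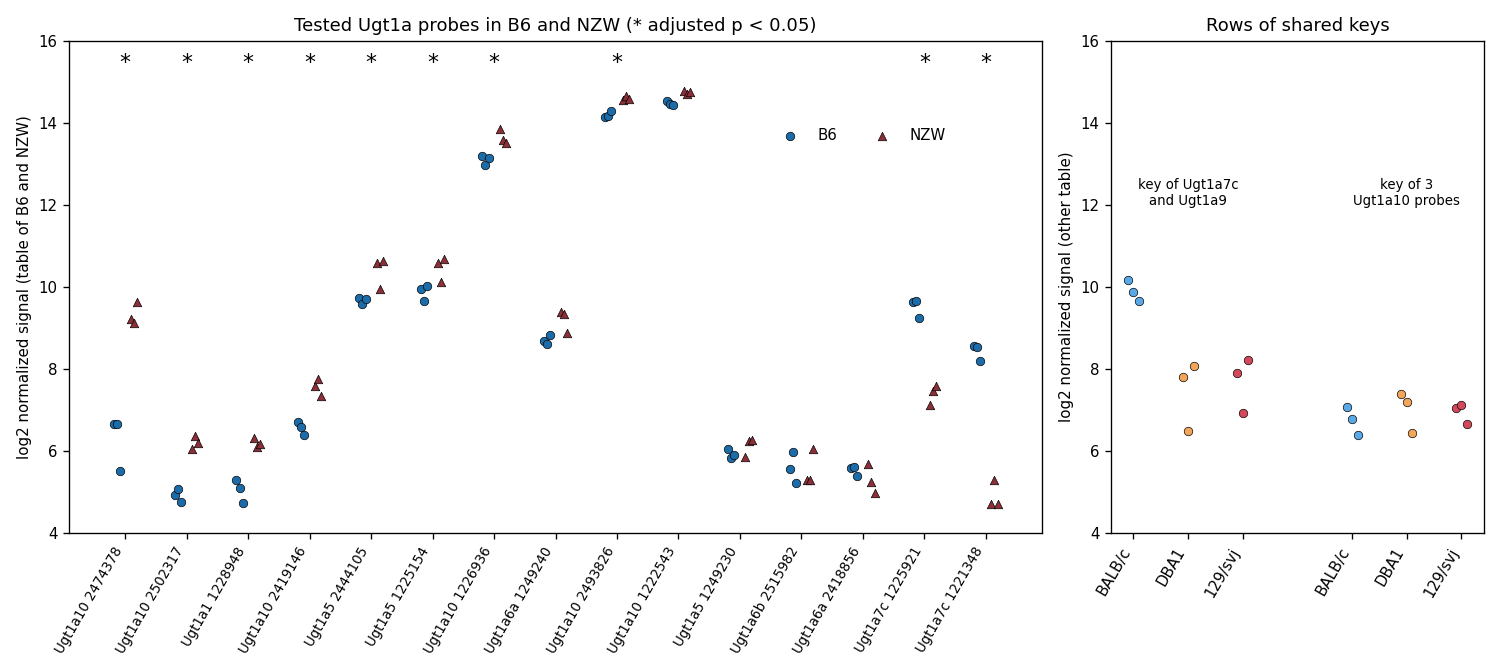
Log2 normalized signal of the 15 tested Ugt1a probes in 3 B6 and 3 NZW mice (left; a star marks an adjusted p below 0.05) and of 2 rows of shared keys in BALB/c, DBA1, and 129/svj (right); each point is a mouse, numbers are probe IDs, and levels of different probes or tables are not comparable. The Ugt1a7c probes were higher in B6 and the row of their key in BALB/c, while 8 other Ugt1a probes were lower in B6.

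Among the aldo-keto reductases of the Akr1c cluster, which reduce steroids and other ketones, 3 probes were higher and 1 was lower in B6. They were the only calls among 9 tested Akr probes of this group, where 9.24% of all probes of that table were higher and 9.6% were lower. Akr1c18, the enzyme that inactivates progesterone, was lower in B6, with 8.47, 8.91, and 9.72 against 11.31, 10.49, and 11.17 in NZW (3.88-fold, log2 -1.96 ± 0.32, adjusted p = 0.00331). Akr1c19 was higher, with 11.46, 11.54, and 11.53 against 10.31, 10.53, and 10.42 (2.13-fold, 1.09 ± 0.11, adjusted p = 0.000158). Akr1c20 (ILMN_2483596) was 2.29-fold higher (1.19 ± 0.12, adjusted p = 0.000213) and Akr1c12 1.73-fold higher (0.79 ± 0.13, adjusted p = 0.00286). In all 4 the strains did not overlap, but the share of all probes without overlap was not counted. Akr1c12 shares its key with Akr1c13, a near copy, so which paralog the probe reads is uncertain, although the Akr1c13 probe was not detected. The row of the Akr1c20 key in the other table was detected in no BALB/c mouse, in 2 of DBA1, and in 2 of 129/svj, and its differences did not pass (adjusted p = 0.201 and 0.117 for BALB/c against each). Akr1b3, aldose reductase, differed by -1.39 ± 0.53 and did not pass (adjusted p = 0.107), with NZW mice at 9.34, 7.57, and 10.01.

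Of 12 such aldehyde dehydrogenase probes, 2 were lower in B6 and none was higher at the threshold, where 18.8% of all probes of that table differed and 9.6% were lower. Aldh1b1, a mitochondrial enzyme, gave 5.19, 4.95, and 5.19 in B6, where it was not detected, and 6.93, 6.75, and 6.72 in NZW, a difference of at least 2.86-fold (adjusted p = 2.12e-05). It passed the detection filter through NZW alone. Aldh3a1, which protects cells from lipid aldehydes, was 2.04-fold lower in B6 (-1.03 ± 0.25, adjusted p = 0.0235), a call that was lost without mouse 1 of NZW or mouse 1 or 3 of B6 (adjusted p up to 0.0706). Fmo5 was lower by 0.66 on the log2 scale in B6 (-0.66 ± 0.14, adjusted p = 0.013), and the probe ILMN_1245640 of Nat12 differed by -0.42 ± 0.10 (adjusted p = 0.0208), a call that was lost without any 1 of the B6 mice (adjusted p up to 0.0733) and with the replicate number as a block (adjusted p = 0.0591). None of the 6 tested sulfotransferase probes of this group differed, including Sult1d1 (0.17 ± 0.15), a sulfotransferase of catecholamines. Akr7a5 (ILMN_1256518), a reductase of aflatoxin aldehydes, gave -0.10 ± 0.10, and Adh5, which oxidizes a formaldehyde adduct of glutathione, gave -0.36 ± 0.12 (adjusted p = 0.0807), and neither passed. The probe ILMN_1222543, named Ugt1a10 with the gene number of Ugt1a6b in its key, differed by -0.26 ± 0.10 and did not pass (adjusted p = 0.101).

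**Figure D4:**
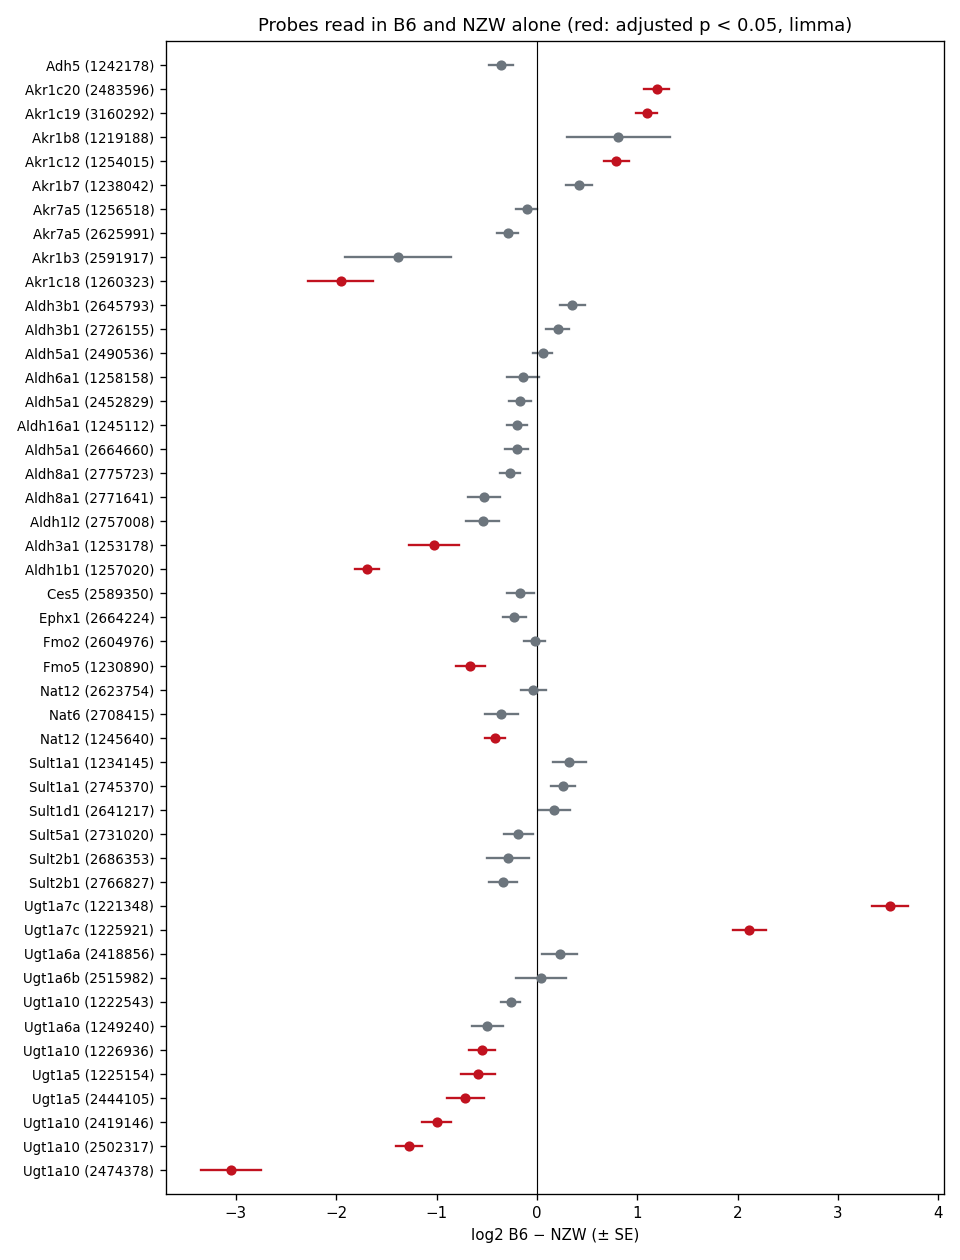
Log2 difference of B6 minus NZW and its standard error for the 47 tested member probes without a partner in the other table, ordered by family, with 3 mice per strain; red marks an adjusted p below 0.05 in limma. The differences run from -3.05 for a Ugt1a10 probe to 3.52 for a Ugt1a7c probe, and those of the sulfotransferases from -0.34 to 0.32.

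The enzymes that supply and surround these families were read as lists chosen with earlier results of these data known. Of 4 tested probes for the supply of cofactors, 1 differed between resistant and sensitive strains: Papss2, which makes the sulfate donor, was higher in the resistant strains (1.28 ± 0.11, adjusted p = 1.34e-06), where 12% of all probes differed. That came from DBA1, with BALB/c minus DBA1 at 6.49 ± 0.17 and BALB/c minus 129/svj at -0.31 ± 0.17. In the table of B6 and NZW, 2 of 20 such probes were higher in B6 and 4 were lower, where 9.24% and 9.6% of all probes were. There the same Papss2 probe was lower in B6 (-0.48 ± 0.13, adjusted p = 0.033), and both Idh1 probes, for an enzyme that makes NADPH, were higher (2.46 ± 0.12 and 2.55 ± 0.10). Of 8 tested probes for other carbonyl reductases, quinone reductases and methyltransferases, 3 were higher in the resistant strains and 2 were lower, where 6.54% and 5.47% of all probes were. Carbonyl reductase Cbr1 was higher in both tables (mean 1.30 ± 0.10, adjusted p = 3.43e-07; 1.53 ± 0.11 for B6 minus NZW among all probes of that table, and 1.08 ± 0.13 for BALB/c minus the mean of its sensitive strains). Xdh, which makes uric acid (1.01 ± 0.20, adjusted p = 0.00296), and the methyltransferase Inmt (0.53 ± 0.17, adjusted p = 0.049) were higher in B6 among all probes of its table (2.88 ± 0.18 and 2.47 ± 0.12) but not in BALB/c (-0.61 ± 0.26, adjusted p = 0.177, and -1.37 ± 0.22, adjusted p = 0.000603). The lower ones were led by Tpmt, a methyltransferase of thiopurines (-0.60 ± 0.09, adjusted p = 0.00024), although its other probe gave -0.12 ± 0.10 (adjusted p = 0.555). In B6 and NZW 6 of 24 probes of this list were higher and 4 were lower in B6, beside the same shares of 9.24% and 9.6%, with Maob (3.78 ± 0.14) and Cbr3 (2.89 ± 0.16) among the higher. None of 6 tested probes of transcription regulators of detoxification genes differed between resistant and sensitive strains. Of the 26 read in B6 and NZW, where 18.8% of all probes differed, Vdr was higher (1.59 ± 0.12), and Ppara (-1.23 ± 0.21), Cebpa (-0.53 ± 0.11), and Nr1h4 (-0.39 ± 0.11) were lower in B6. A further Vdr probe gave -0.34 ± 0.11 (adjusted p = 0.0681), a further Cebpa probe 0.01 ± 0.14, and the Ahr probe did not pass the detection filter.

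The other members gave no signal to compare. A total of 45 of the 93 genes had no probe past the filter, 12 of them Ugt, 7 Nat, 6 Sult, 5 Adh, 5 Akr, 4 Aldh, 3 Ces, and 3 Fmo genes, and 38 were detected in no mouse of B6 and NZW. Among these were the drug acetyltransferases Nat1 and Nat2, the sulfotransferases Sult2a1 and Sult1e1 of steroids, and Ugt2b5 and Ugt2b1, glucuronosyltransferases of the Ugt2b cluster. A probe below detection sets only an upper bound on its signal and does not show that the gene was silent. Each member probe was read on 8 to 85 beads per array (median 39).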

How the data were processed

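Kidney cortex RNA of 15 challenged mice of 5 strains was read on Illumina Mouse WG-6 BeadChips. The authors deposited non-normalized intensity values from BeadStudio, p-values of detection over each array's negative control beads, and the number of beads per probe with a standard error, in 2 tables. Background correction and normalization of these arrays are not given in the sources used here. Of 18 arrays, 3 (one each for BALB/c, DBA1, and 129/svj) were repeats of the first mouse according to the labels' descriptions, and were averaged with it.

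From these values, intensities were corrected by normexp from detection p-values (limma 3.58.1 in R 4.3.3, offset 16), quantile normalized over the 19887 paired probes, and put on the log2 scale. Probes were paired by search key, and Fmo4 by its name in the study. The tested probes had a detection p not above 0.05 for 3 or more mice, and were compared by lmFit and eBayes with 1 coefficient per strain and Benjamini-Hochberg adjustment over all of them. Unpaired probes were normalized and tested within their own table. Errors of differences are standard errors. Whether groups of mice overlap is given as a description of the values, and the share of all probes without overlap was not counted. A bound ("at least") sets the bright group's mean against the higher of the dim probe's own signal and the lowest detected signal on each array. The number of arrays limits the precision, and depth does not apply. On simulated data with 200 of 6897 probes changed by 1 on the log2 scale, 95.5% were recovered between resistant and sensitive strains and 5.911% of calls were false. The simulated strains of a table differed in nothing but these changes. The real strains also differ apart from the labels, so the share of false calls does not carry over to them.

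The members and gene lists were chosen with earlier results of these data known. Members named with values were those called and separating resistant from sensitive strains, the largest calls of each strain comparison, and those that all mice of a strain but no mouse of another detected, and others were chosen after their values were seen. Alternatives were 75th percentile scaling, each table normalized on its own, no background correction, other detection filters, no repeat arrays, a replicate block, the methods' plain test on mice, the strain as a random block, and leaving out each mouse. Deviations of same-numbered mice from their strain means correlated over 0.1 for all 3 numbers only between DBA1 and 129/svj (0.104 to 0.356), where the numbers were taken to pair the mice although the labels name no shared source. A replicate block in these strains alone, leaving out mouse 3 of both, and reading rows with shared keys were chosen after seeing the data. Python 3.11.15 with pandas 2.3.3, numpy 2.4.6, and matplotlib 3.10.9 served for tables and plots.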

Additional observations from a re-analysis of the deposited data

Results flagged for a closer look

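For 3 members, the resistant strain of one table differed from its sensitive strains otherwise than in the other table, by limma's test of the difference itself (BALB/c minus the mean of DBA1 and 129/svj, less B6 minus NZW). For Fmo1 this was -3.35 ± 0.28 (adjusted p = 1e-06), with B6 the only strain in which the probe was detected. For Fmo4 it was -1.37 ± 0.21 (adjusted p = 0.000486), with the gap wider in the table of BALB/c. For Sult1c2 it was 1.17 ± 0.30 (adjusted p = 0.02), with BALB/c above its sensitive strains and B6 not above NZW. The tables hold different strains, so strain and table cannot be told apart here.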

How the results depend on the processing

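No named difference changed direction under any alternative. Of the values of named differences, 313 kept their call and 52 lost it under other settings, and 491 kept and 85 lost it when 1 mouse was left out. Percentages given with the counts below are the shares of all tested probes called under the same setting. Among probes detected in every mouse, the count of members called was 3 between resistant and sensitive strains (12.4%), 2 between B6 and NZW (9.89%), and 2 between DBA1 and 129/svj (6.32%), over 13 tested. The methods' t-test called 0 members between resistant and sensitive strains (0.464%). It gave 4 members at an unadjusted p under 0.05, where limma gave 9 unadjusted and called 6 after adjustment. For these labels the t-test pooled the mice of both tables, so it was not the comparison within each table. Between BALB/c and DBA1 it called 0 (1.77%), with 5 members unadjusted, where limma gave 7 unadjusted and called 6 after adjustment. It called 1 between BALB/c and 129/svj (1.96%), and 1 between DBA1 and 129/svj (1.75%). With the strain as a random block (correlation 0.17) the count was 1 between resistant and sensitive strains (1.52%). With no filter on dim probes it was 2 between DBA1 and 129/svj (2.31%), and with no background correction 5 for the difference between the tables (10.4%). Without mouse 3 of both DBA1 and 129/svj it was 5 between BALB/c and 129/svj (8.6%), 3 between DBA1 and 129/svj (9.34%), and 5 for the difference between the tables (14.7%). Unpaired probes between B6 and NZW gave 25 with scaling to the 75th percentile (21.6%). Members called and separating all strains by label were 0 with that scaling, 0 with each table normalized on its own, 0 by the methods' t-test, and 1 with the random block. Over all 6897 tested probes these counts were 236, 257, 32, and 71.

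Leaving out 1 mouse gave 6 to 7 members between resistant and sensitive strains, 3 to 7 between B6 and NZW (3 without mouse 3 of NZW or mouse 1 or 2 of B6, with 7.74%, 7.08%, and 6.9%), and 3 to 6 between BALB/c and DBA1 (3 without mouse 3 of BALB/c, with 7.89%). It gave 2 to 4 between BALB/c and 129/svj, and 2 to 5 between DBA1 and 129/svj (2 without mouse 3 of DBA1 or mouse 1 or 2 of 129/svj, with 8.15%, 6.15%, and 6.31%, and 3 without mouse 2 of DBA1, with 5.84%). It gave 2 to 4 for the difference between the tables, 12 to 19 unpaired probes, and 1 to 3 separating members (1 without mouse 1 of DBA1, with 235 of all 6897 probes). The cause of these changes was not tested. Shares under an omission are given only where the count moved. With all mice, 12% of all probes differed between resistant and sensitive strains and 7.5% between BALB/c and 129/svj. The shares were 10.3% for the difference between the tables, 18.8% for the table of B6 and NZW, and 3.49% for separating probes.

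Same-numbered mice correlated over 0.1 in 4 of 30 pairs of mice over 10 pairs of strains (-0.223 to 0.356), and 3 of the 4 were DBA1 with 129/svj. With the replicate block in these strains only, 6 members differed between them (9.71%) and no named call was lost. With the replicate block, the counts were 7 between resistant and sensitive strains (11.4%), 6 between B6 and NZW (9.05%), 6 between BALB/c and DBA1 (8.84%), and 4 between BALB/c and 129/svj (7.37%). They were 5 between DBA1 and 129/svj (6.9%), 3 for the difference between the tables (9.89%), 16 unpaired probes (15.6%), and 2 separating members (238 of all 6897 probes). The methods' t-test has no form for the difference between the tables and was not run there.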
